A study of Mus musculus with 16 samples.

Results

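Imprinted genes are transcribed mainly from 1 parental copy, and the 38 genes described here were taken by name from a list of well-known mouse imprinted genes in 19 chromosomal domains. Of these, 14 are known for expression from the maternal copy, 23 for expression from the paternal copy, and Gnas makes different transcripts from each. A row was found for 37 of the 38 in a table of 23179 genes, and Magel2, which is paternally expressed, was not analysed here. With Rtl1 at 2 to 12 reads per library, 36 members were among the 21218 genes tested. The RNA-Seq values are totals over both copies of each gene, so the parental copy in use was not measured.

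RNA came from the mammary fat pad of female C57BL/6N mice (C57BL/6NCrl in the methods) on the side away from a tumor grown from E0771 cells, a mouse mammary cancer line, with 4 libraries in each of 4 groups. Control mice were fed a low-fat diet throughout (CON-LFD). Mice made obese on a diet with 60% fat either stayed on it (DIO-HFD), were switched to low-fat food (DIO-LFD), or had vertical sleeve gastrectomy, the removal of part of the stomach, followed by low-fat food (DIO-VSG). Every mouse of the first 3 groups had sham surgery, and all mice of all 4 groups carried E0771 cells injected into the 4th fat pad 22 weeks after the diets were assigned, at an adult age. The labels name E0771 as the cell line of each sample, while the sampled tissue was the 9th fat pad.

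Imprinting rests on DNA methylation laid down differently in egg and sperm at control regions, which keep neighbouring genes of a domain silent on 1 copy. Many imprinted genes act on growth: paternally expressed Igf2 is a growth factor, maternally expressed Igf2r removes it, and Grb10 dampens insulin receptor signalling. In fat, Mest is known to rise with fat expansion, and Dlk1 is a surface protein of preadipocytes that restrains their differentiation. Peg3 and Plagl1 encode zinc finger proteins, and H19, Meg3, Kcnq1ot1 and Airn are long noncoding RNAs.

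The libraries differed in their cell makeup before any comparison of groups. Recovered totals lay between 46907377 and 57610899 reads. The summed normalized count of 15 lymphoid markers ran from 913 in CON-LFD replicate 2 to 121152 in DIO-HFD replicate 1. It was also low in CON-LFD replicate 4 (2501) and in DIO-HFD replicates 2 (4556) and 3 (1571), while the 4 DIO-VSG libraries held 79884 to 98932 and the 4 DIO-LFD libraries 22128 to 44334. All 15 lymphoid and all 15 adipocyte markers were above 3 reads in every library. The sum of 15 stromal progenitor markers ran from 65998 in DIO-LFD replicate 1 to 545596 in CON-LFD replicate 4. The sum of 15 adipocyte markers was lowest in DIO-HFD replicate 1 (677699) and highest in DIO-LFD replicate 1 (2246880). DIO-HFD replicate 4 stood out for 10 keratinocyte markers (14216, against 1172 to 2776 elsewhere), and DIO-LFD replicate 4 for 10 skeletal muscle markers (156253). In bulk tissue, fewer cells of a type and less RNA per cell cannot be told apart. The part of cell makeup in the differences between groups was not tested. Fits with marker scores are given with the results as description, since the scores differ with the groups. The lymphoid score, the mean log2 count of its markers, was 12.0 to 12.4 in DIO-VSG and 10.2 to 11.2 in DIO-LFD.

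**Figure D1:**
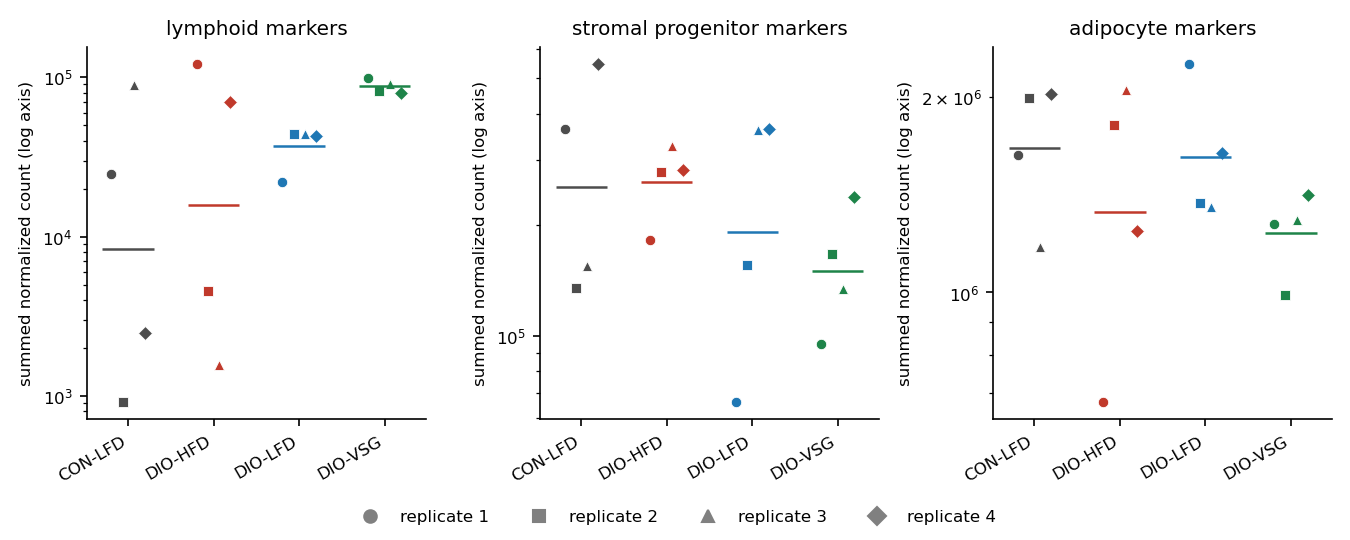
Summed normalized counts (log axes) of the lymphoid, stromal progenitor and adipocyte marker lists in each of the 16 libraries, with 1 symbol per replicate number and a line at the geometric mean of each group. Lymphoid sums span 913 to 121152, and DIO-HFD replicates 2 and 3 lie far below replicates 1 and 4 of the same group.

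Of the 38 members, 30 have a RefSeq start region in the table used (GRCm38.p6, 250 bases before to 50 bases after the start). The start regions of 4 members that stand highest in DIO-HFD replicates 2 and 3 or DIO-LFD replicate 1 are shown here, the window richest in CG pairs where a gene has several, on the strand of each gene, with CG pairs, the sites of DNA methylation, in capitals. Peg3 (chr7:6730370-6730669, minus strand) shares 263 bases of its window with Usp29, which runs the opposite way, Zim1 (chr7:6696383-6696682, minus strand) lies in the same domain, and Mest (chr6:30737803-30738102, plus strand) and Plagl1 (chr10:13090582-13090881, plus strand) lie in others.
Peg3: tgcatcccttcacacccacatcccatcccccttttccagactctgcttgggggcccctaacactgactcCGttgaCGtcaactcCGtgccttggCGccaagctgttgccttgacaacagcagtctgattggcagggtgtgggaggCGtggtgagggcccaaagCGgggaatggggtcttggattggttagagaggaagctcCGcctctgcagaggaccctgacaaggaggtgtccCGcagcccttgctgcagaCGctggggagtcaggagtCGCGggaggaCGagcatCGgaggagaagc
Zim1: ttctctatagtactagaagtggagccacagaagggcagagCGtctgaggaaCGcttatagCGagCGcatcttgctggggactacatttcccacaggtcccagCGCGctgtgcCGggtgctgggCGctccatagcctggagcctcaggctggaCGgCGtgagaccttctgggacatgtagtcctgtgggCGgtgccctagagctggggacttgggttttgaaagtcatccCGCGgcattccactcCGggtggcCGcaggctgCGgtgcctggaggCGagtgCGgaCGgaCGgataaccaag
Mest: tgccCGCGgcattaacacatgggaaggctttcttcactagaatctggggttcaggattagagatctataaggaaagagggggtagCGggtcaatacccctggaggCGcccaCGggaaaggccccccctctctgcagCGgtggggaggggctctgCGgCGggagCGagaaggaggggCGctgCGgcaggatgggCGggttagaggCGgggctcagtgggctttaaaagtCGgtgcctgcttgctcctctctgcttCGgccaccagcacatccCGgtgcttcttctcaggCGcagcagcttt
Plagl1: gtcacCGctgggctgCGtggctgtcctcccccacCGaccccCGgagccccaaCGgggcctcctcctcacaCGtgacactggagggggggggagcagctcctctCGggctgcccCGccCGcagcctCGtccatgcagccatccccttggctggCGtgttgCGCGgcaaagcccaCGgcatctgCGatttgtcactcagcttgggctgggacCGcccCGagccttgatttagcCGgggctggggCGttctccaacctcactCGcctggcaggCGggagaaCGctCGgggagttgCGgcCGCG

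CG pairs, read on either strand, numbered 13 in the Peg3 window, 20 in Zim1, 17 in Mest and 26 in Plagl1. At least as many were found in 37.9%, 26.5%, 31.4% and 16.9% of the 32851 windows of all genes, in that order. The median was 7 over all windows and 17 over the 30 members, taking the richest window of each gene. These medians and percentages do not compare like with like, since the windows of all genes were taken without such a choice. This is a description of the sequence, since methylation was not measured in these libraries.

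Levels of the members were compared per kb of the longest annotated transcript, as the mean normalized count over 16 libraries. Nnat, a small membrane proteolipid, was the highest at 23033 per kb, and it was above the next 4 members in each group. Gnas, which encodes the stimulatory G protein alpha subunit, was at 8414, Mest, a hydrolase-fold protein, at 7621, Peg3 at 2647 and Blcap at 2271 per kb. The order of these 4 by group mean differed between groups: Mest was above Gnas in DIO-HFD (11112 and 8521) and DIO-LFD (12260 and 8702) and below Blcap in CON-LFD (2141 and 2470), and Peg3 was above Blcap in DIO-HFD alone. These means rest on few libraries. In DIO-LFD, Mest had 107018 counts in replicate 1 and 1775 to 14618 in the others. In DIO-HFD it had 37143 and 60171 in replicates 2 and 3, against 10041 and 11099 in replicates 1 and 4. Igf2r (880) was above Igf2 (168) and H19 (194), and Kcnq1ot1 was at 40.8 over its annotated 93092 bases. Usp29 (8.45), Dlk1 (9.04), Mirg (7.32) and Zdbf2 (3.66) were among the lowest members tested.

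The spread over the 16 libraries differed widely between members. The highest library exceeded the lowest more than 10-fold for 9 of 36 members, 4 of them maternally and 5 paternally expressed. At the other end, H13, a signal peptide peptidase, varied 1.4-fold, and Igf2r, Peg13 and Zrsr1 1.6-fold.

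The first question was which members differ in mice that stayed obese on the high-fat diet. Against CON-LFD, 14 of 36 members were higher and 22 lower in DIO-HFD, with a median log2 change of -0.10 beside 0.02 over all genes tested. The sign of this median turned without CON-LFD replicate 4 (0.05) and without DIO-HFD replicate 1 (0.05), and it was -0.23 without CON-LFD replicate 3. In limma with Benjamini-Hochberg adjustment over all genes, 0 members passed an adjusted p of 0.05, as did 0.0377% of all genes (8 genes). At an unadjusted p under 0.05, 6 of 36 members (16.7%) were called, beside 12.9% of all genes. Those 6 were Usp29, Zim1, Peg10, Peg3 and Mest, all higher in DIO-HFD, and Kcnq1ot1, lower.

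Of the 5 members called higher, 3 lie in 1 domain. The Peg3 domain on chromosome 7 holds paternally expressed Peg3 and Usp29, whose starts are 147 bases apart on opposite strands in GENCODE, and maternally expressed Zim1, whose start lies 33981 bases from that of Peg3. Normalized counts of Peg3 in replicates 1 to 4 were 7395, 20829, 6041 and 12126 in CON-LFD. They were 16805, 84105, 81311 and 18394 in DIO-HFD, then 59709, 4642, 9864 and 11405 in DIO-LFD, and 10787, 4787, 10080 and 9923 in DIO-VSG. DIO-HFD replicates 2 and 3 were the highest of the 16 libraries, DIO-LFD replicate 1 came next, and DIO-HFD overlapped CON-LFD through replicates 1 and 4.

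Usp29, annotated as a ubiquitin-specific peptidase, was at a low level. Its normalized counts were 13.2, 12.7, 6.46 and 11.1 in CON-LFD, 46.3, 309, 390 and 52.4 in DIO-HFD, 95.0, 7.93, 20.0 and 4.09 in DIO-LFD, and 17.6, 4.50, 20.5 and 9.53 in DIO-VSG. All DIO-HFD libraries were above all CON-LFD and DIO-VSG libraries, and DIO-LFD replicate 1 lay within the DIO-HFD range. The log2 change of Usp29 was 3.52 (SE 0.88, adjusted p = 0.185 in limma) against CON-LFD and -3.42 (SE 0.88, adjusted p = 0.243) for DIO-VSG against DIO-HFD.

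Zim1, a zinc finger gene read mainly from the maternal copy, was highest in the same 3 libraries as its paternally expressed neighbours. Its values were 585, 1199, 409 and 1060 in CON-LFD, 2011, 13397, 11697 and 1783 in DIO-HFD, 6837, 626, 1029 and 969 in DIO-LFD, and 721, 687, 866 and 733 in DIO-VSG. The DIO-HFD libraries again lay above all of CON-LFD and DIO-VSG, and DIO-LFD replicate 1 lay among them. The log2 change was 2.71 (SE 0.76, adjusted p = 0.217 in limma) against CON-LFD and -2.70 (adjusted p = 0.254) for DIO-VSG against DIO-HFD. For Peg3 the corresponding values were 1.89 (SE 0.73, adjusted p = 0.303) and -2.17 (SE 0.73, adjusted p = 0.288).

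Peg10, a gene derived from a retrotransposon and read from the paternal copy, showed a wide gap within DIO-HFD between replicates 2 and 3 and replicates 1 and 4. Its normalized counts were 484, 488, 397 and 1424 in CON-LFD, 1020, 12896, 10106 and 1056 in DIO-HFD, 1185, 224, 476 and 771 in DIO-LFD, and 385, 239, 277 and 554 in DIO-VSG. DIO-HFD replicates 2 and 3 were far above every other library, replicates 1 and 4 lay below CON-LFD replicate 4 and DIO-LFD replicate 1, and no DIO-VSG library reached the DIO-HFD range. The log2 change was 2.51 (SE 0.80, adjusted p = 0.247 in limma) against CON-LFD and -3.32 (SE 0.80, adjusted p = 0.243) for DIO-VSG against DIO-HFD.

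Mest and Plagl1 varied widely within groups. Mest values were 3934, 6728, 1376 and 10790 in CON-LFD, 10041, 37143, 60171 and 11099 in DIO-HFD, 107018, 1775, 7277 and 14618 in DIO-LFD, and 14371, 5256, 8291 and 25074 in DIO-VSG. The highest library was DIO-LFD replicate 1, and DIO-HFD overlapped each of the other groups. The log2 change of Mest in DIO-HFD against CON-LFD was 2.33 (SE 1.04, adjusted p = 0.368 in limma), the one comparison of the 7 in which its unadjusted p was under 0.05. Plagl1, a zinc finger regulator of the cell cycle, was at 2984, 2095, 2125 and 6003 in CON-LFD, 1606, 10547, 7646 and 3249 in DIO-HFD, 2688, 1193, 2575 and 3287 in DIO-LFD, and 1933, 1369, 1466 and 1920 in DIO-VSG. DIO-HFD held both the highest libraries of Plagl1 and, in replicate 1, one of the lower ones. The log2 change of Plagl1 was -1.45 (SE 0.52, adjusted p = 0.305) for DIO-VSG against DIO-HFD and 0.60 (SE 0.52, adjusted p = 0.669) for DIO-HFD against CON-LFD.

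**Figure D2:**
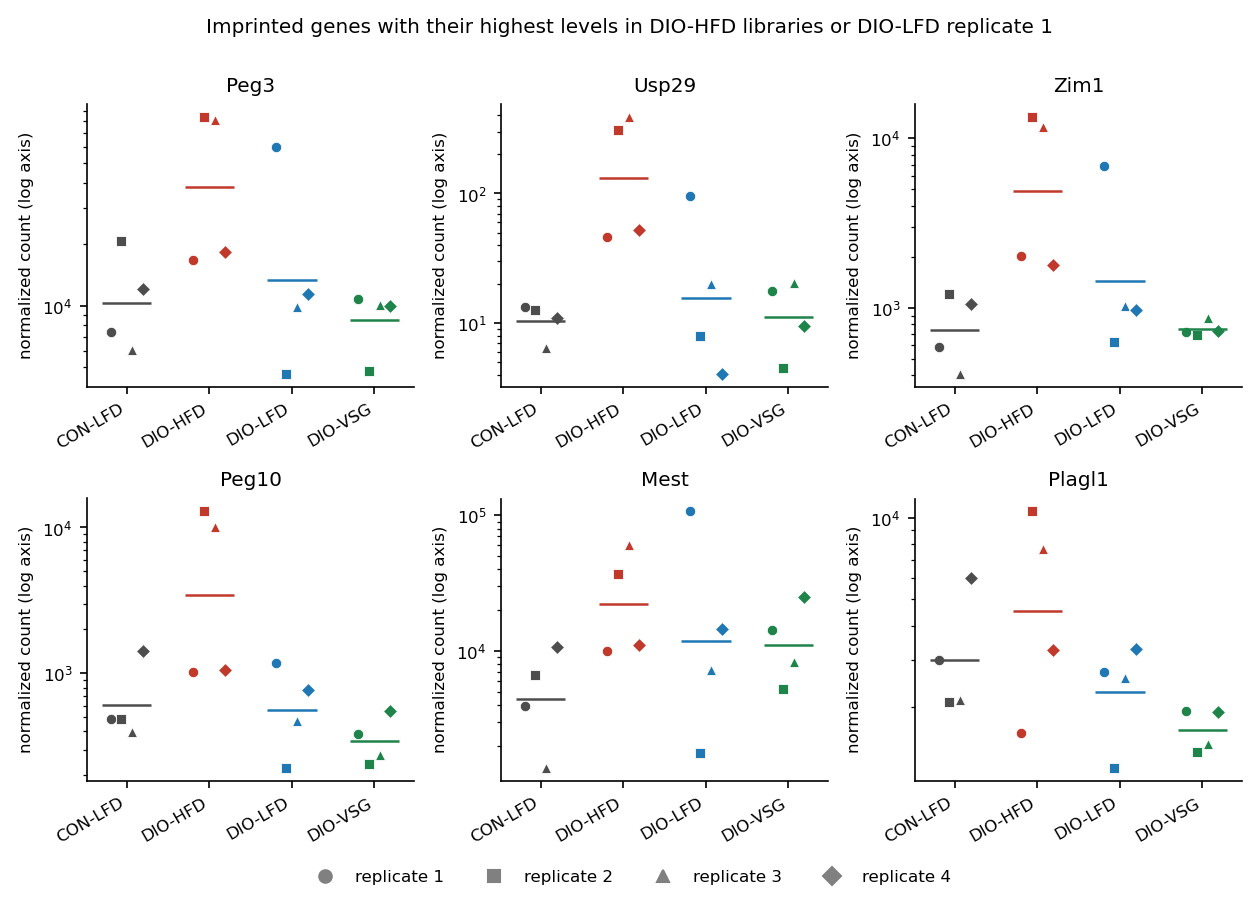
Normalized counts (log axes) of Peg3, Usp29, Zim1, Peg10, Mest and Plagl1 in each library by group, with 1 symbol per replicate number and a line at the geometric mean of the group. DIO-HFD replicates 2 and 3 stand above replicates 1 and 4 in all 6 genes, as in other members not shown, and DIO-LFD replicate 1 is the highest library for Mest (107018).

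In DIO-HFD, all 6 of these members were highest in replicates 2 and 3. This was not particular to them. Other members showed the same order, such as Igf2r (8881 and 9508, against 5929 and 6685 in replicates 1 and 4) and Gnas. For others, such as Meg3 and Nnat, replicate 4 was the highest of the group. Without DIO-HFD replicates 2 and 3, the log2 change against CON-LFD was 2.13 for Usp29, 1.35 for Zim1, 0.78 for Peg10, 0.77 for Peg3, 1.25 for Mest and -0.39 for Plagl1. Of these 6, Usp29 alone had an unadjusted p under 0.05 in that fit, with an adjusted p of 0.186 in limma. DIO-HFD replicates 2 and 3 were the lymphoid-poor libraries of their group, with adipocyte marker sums of 1807596 and 2046388 against 677699 and 1241663 in replicates 1 and 4. The lymphoid-poor libraries of CON-LFD, with adipocyte sums of 1991382 and 2022062, held 20829 and 12126 counts of Peg3 and 488 and 1424 of Peg10. With the lymphoid score as a covariate, the log2 changes against CON-LFD were 3.83 for Usp29 (adjusted p = 0.0715), 3.07 for Zim1 (adjusted p = 0.0504), 2.86 for Peg10 (adjusted p = 0.0913), 2.21 for Peg3 and 2.72 for Mest.

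Kcnq1ot1, the paternally expressed antisense RNA that silences genes of its domain on the copy it is read from, was lower in DIO-HFD. Its normalized counts were 5295, 4351, 5184 and 3936 in CON-LFD, 3565, 3310, 2196 and 3360 in DIO-HFD, 3224, 3918, 3497 and 3229 in DIO-LFD, and 4192, 3928, 3942 and 3679 in DIO-VSG. All 4 libraries of DIO-HFD and all 4 of DIO-LFD were below all of CON-LFD, and DIO-VSG overlapped CON-LFD and DIO-LFD but not DIO-HFD. The log2 change was -0.61 (SE 0.14, adjusted p = 0.167 in limma) for DIO-HFD and -0.43 (SE 0.14, adjusted p = 0.602) for DIO-LFD, each against CON-LFD. It was 0.36 (SE 0.14, adjusted p = 0.32) for DIO-VSG against DIO-HFD.

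With the lymphoid score as a covariate, Kcnq1ot1 had an adjusted p of 0.0377 in DIO-HFD against CON-LFD in limma, at a log2 change of -0.67, beside 0.0848% of all genes past that threshold. Without the 4 lymphoid-poor libraries the change was -0.60 (SE 0.11, adjusted p = 0.602), and without DIO-HFD replicates 2 and 3 it was -0.43 (SE 0.13, adjusted p = 0.156). Kcnq1ot1 lies inside Kcnq1 on the opposite strand, and whether reads were counted by strand was not stated, so reads of both genes may not be separate. Kcnq1, a potassium channel subunit, had a log2 change of 0.23 (adjusted p = 0.733 in limma) for DIO-HFD against CON-LFD and -0.84 (adjusted p = 0.259) for DIO-VSG against DIO-HFD. Cdkn1c, a maternally expressed inhibitor of the cell cycle in the same domain, had r = 0.05 with Kcnq1ot1 over 16 libraries (permutation p = 0.868; Spearman's rho -0.21, permutation p = 0.431), and r = 0.08 without the 2 libraries farthest from the median.

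When DIO-HFD was set against the mean of the 3 low-fat diet groups, 22 of 36 members were higher and 14 lower, with a median log2 change of 0.10 beside -0.01 over all genes. This median was 0.32 without DIO-HFD replicate 1, 0.0019 without replicate 2 and -0.09 without replicates 2 and 3. No member passed the adjusted threshold in limma, nor did any other gene (0% of 21218). At an unadjusted p under 0.05, 6 members (16.7%) were called beside 11.6% of all genes. The largest differences were those of Usp29 (3.29, SE 0.71, adjusted p = 0.119 in limma), Peg10 (2.81, SE 0.65, adjusted p = 0.142) and Zim1 (2.39, SE 0.62, adjusted p = 0.182). Peg3, Plagl1 and Kcnq1ot1 completed the 6, at 1.86, 1.01 and -0.38. With the lymphoid score as a covariate, Peg10 (adjusted p = 0.0473) and Usp29 (adjusted p = 0.0478) passed, beside 0.749% of all genes, and without DIO-HFD replicates 2 and 3 their log2 changes were 1.09 and 1.89, with adjusted p = 0.410 and 0.366.

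The next question was what weight loss by diet alone left behind. Between DIO-LFD and DIO-HFD, 19 of 36 members were higher and 17 lower in DIO-LFD (median 0.01, and 0.01 over all genes). Leaving out single libraries moved this median from -0.14 (without DIO-HFD replicate 1) to 0.09 (without DIO-HFD replicate 2). No gene of the whole table passed the adjusted threshold in limma (0%), and 4 members (11.1%) had an unadjusted p under 0.05 beside 8.53% of all genes. Usp29 (-2.93, SE 0.88, adjusted p = 0.448), Peg10 (-2.62, SE 0.80, adjusted p = 0.456) and Zim1 (-1.76, SE 0.76, adjusted p = 0.549) were lower in DIO-LFD. Mcts2 was higher (0.47, SE 0.20, adjusted p = 0.543). Its values were 327, 322, 180 and 245 in CON-LFD, 171, 229, 258 and 206 in DIO-HFD, 247, 317, 306 and 321 in DIO-LFD, and 216, 234, 319 and 254 in DIO-VSG, so DIO-LFD replicate 1 alone lay within the DIO-HFD range. Mcts2 is a retrogene inside H13 on the same strand, and its reads cannot be told with certainty from those of its parent gene or of H13.

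Between DIO-LFD and CON-LFD, 16 members were higher and 20 lower in DIO-LFD, with a median of -0.08 beside 0.02 over all genes. This median turned to 0.07 without CON-LFD replicate 4, to 0.0046 without DIO-LFD replicate 2 and to 0.11 with the lymphoid covariate, and it was -0.14 without CON-LFD replicate 3. Kcnq1ot1 was the 1 member of 36 (2.78%) with an unadjusted p under 0.05 in limma, beside 6.26% of all genes, and 0 members passed the adjusted threshold beside 0.00471% of all genes (1 gene).

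The members in DIO-VSG lay mostly below those of the other groups. Against DIO-HFD, 30 of 36 members were lower (median -0.33, and 0.02 over all genes), beside 10085 of 21218 genes tested. Against DIO-LFD, 33 of 36 were lower (median -0.32, and -0.02 over all genes), beside 11191 of all genes. Against CON-LFD it was 27 of 36 (median -0.32, and -0.02 over all genes), beside 11070 of all genes. The 3 counts share the DIO-VSG libraries and are not independent of each other. Neighbours that vary together, such as Meg3 and Rian, count as separate members. In none of the 3 comparisons did any gene of the table pass the adjusted threshold in limma (0%). A fit of DIO-VSG and DIO-LFD alone called 1533 genes (7.22%) and 0 members. At an unadjusted p under 0.05, 9 members (25%) were called against DIO-HFD beside 13.2% of all genes, 4 (11.1%) against DIO-LFD beside 9.71%, and 11 (30.6%) against CON-LFD beside 17.8%.

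Seen by parental copy, all 14 maternally expressed members were lower in DIO-VSG than in DIO-LFD (median -0.45), as were 18 of 21 paternally expressed members (median -0.29), beside 11191 of 21218 genes tested. Slc38a4, Zrsr1 and Kcnq1ot1 were the 3 exceptions. Against CON-LFD, 12 of 14 maternal members (median -0.47) and 14 of 21 paternal members (median -0.24) were lower in DIO-VSG. Against DIO-HFD the order of the medians was the other way, with 12 of 14 maternal members (median -0.24) and 17 of 21 paternal members (median -0.40) lower in DIO-VSG. In DIO-HFD against CON-LFD, 11 of 14 maternal members were lower (median -0.24), while 11 of 21 paternal members were higher (median 0.01). Over all 21218 genes tested, 11192 were higher and 10026 lower in that comparison. Whether maternal and paternal members differ from each other was not tested, since members are not replicates of a condition.

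The 11 members called against CON-LFD at the unadjusted threshold were all lower in DIO-VSG. They were Nnat, Dlk1, Grb10, Igf2, Mirg, Ppp1r9a, Sgce, Gnas, Meg3, Rian and Ndn, each with adjusted p = 0.268 in limma. All 3 maternally expressed noncoding members of the Dlk1-Meg3 domain on chromosome 12 are among them, with the paternally expressed coding gene Dlk1.

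Dlk1 was scarce, with normalized counts of 51.9, 51.9, 33.2 and 85.4 in CON-LFD, 19.4, 55.3, 43.7 and 36.9 in DIO-HFD, 37.1, 52.6, 40.0 and 60.3 in DIO-LFD, and 25.9, 31.5, 26.7 and 21.0 in DIO-VSG. Every DIO-VSG library was below every library of CON-LFD and of DIO-LFD, while DIO-HFD replicate 1 was the lowest of all. This separation is narrow for so few reads: 35 in DIO-VSG replicate 2, 36 in CON-LFD replicate 3 and 34 in DIO-LFD replicate 1. The log2 change was -0.99 (SE 0.33, adjusted p = 0.268 in limma) against CON-LFD and -0.82 (SE 0.33, adjusted p = 0.509) against DIO-LFD.

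Meg3, the long noncoding RNA of the same domain, was at 2268, 1769, 1145 and 4385 in CON-LFD, 1067, 1924, 1958 and 2226 in DIO-HFD, 665, 1906, 2283 and 1946 in DIO-LFD, and 581, 1212, 1192 and 1326 in DIO-VSG. Rian, which hosts small nucleolar RNAs, was at 903, 509, 371 and 1735 in CON-LFD, 424, 643, 614 and 692 in DIO-HFD, 183, 591, 955 and 685 in DIO-LFD, and 135, 319, 389 and 515 in DIO-VSG. In both, DIO-VSG overlapped each other group, and DIO-LFD replicate 1 and DIO-VSG replicate 1, the libraries with the lowest stromal marker sums (65998 and 95019), were the lowest of the 16. CON-LFD replicate 4, with the highest stromal sum, was the highest. Mirg, a host of microRNAs, was at 32.0, 29.7, 23.1 and 63.3 in CON-LFD, 20.4, 36.5, 22.9 and 23.8 in DIO-HFD, 17.5, 36.7, 32.4 and 36.8 in DIO-LFD, and 7.26, 15.3, 30.8 and 19.1 in DIO-VSG. DIO-VSG against CON-LFD gave log2 changes of -1.04 (SE 0.45) for Meg3, -1.27 (SE 0.55) for Rian and -1.05 (SE 0.41) for Mirg.

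Grb10, the maternally expressed adaptor that dampens insulin and growth factor receptor signalling, was called in all 3 comparisons of DIO-VSG at the unadjusted threshold. Its values were 4754, 5239, 3738 and 7181 in CON-LFD, 2878, 6177, 5305 and 4625 in DIO-HFD, 6868, 3740, 4542 and 4190 in DIO-LFD, and 2733, 3412, 3029 and 3231 in DIO-VSG. All DIO-VSG libraries were below all CON-LFD and DIO-LFD libraries, and DIO-HFD replicate 1 (2878) lay within the DIO-VSG range. The log2 changes were -0.72 against CON-LFD, -0.56 against DIO-HFD and -0.61 against DIO-LFD (SE 0.24 each, adjusted p = 0.268, 0.359 and 0.509 in limma).

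Nnat was at 44610, 41716, 35672 and 52342 in CON-LFD, 21304, 43876, 40379 and 50033 in DIO-HFD, 29274, 24392, 36386 and 20753 in DIO-LFD, and 39945, 11852, 14505 and 26586 in DIO-VSG. DIO-VSG replicate 1 lay within the CON-LFD range, and the other DIO-VSG libraries lay below it. The log2 change was -1.06 (SE 0.35) against CON-LFD and -0.84 (SE 0.35) against DIO-HFD. Nnat lies inside Blcap on the opposite strand.

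Igf2 was at 1038, 1201, 648 and 989 in CON-LFD, 610, 699, 917 and 860 in DIO-HFD, 967, 608, 867 and 730 in DIO-LFD, and 656, 658, 533 and 705 in DIO-VSG. CON-LFD replicate 3 lay within the DIO-VSG range and the other CON-LFD libraries were above it, with a log2 change of -0.57 (SE 0.20, adjusted p = 0.268 in limma). Without CON-LFD replicate 3 the change was -0.76, and Igf2 then passed the adjusted threshold as the one member to do so (2.78% of 36), beside 4.11% of all genes (873 genes) in that fit. Its receptor for clearance, Igf2r, had a log2 change of -0.10 (SE 0.14, adjusted p = 0.699) in the same comparison and varied from 5929 to 9508 over the 16 libraries.

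Gnas was at 35191, 39331, 29593 and 40741 in CON-LFD, 26366, 38168, 39962 and 30035 in DIO-HFD, 35809, 32313, 33464 and 35796 in DIO-LFD, and 26704, 27243, 29902 and 30717 in DIO-VSG. All DIO-VSG libraries were below all of DIO-LFD, and CON-LFD replicate 3 lay among them. The change against CON-LFD was -0.33 (SE 0.14). The files give a single value for Gnas, so its maternal, paternal and biallelic transcripts cannot be told apart.

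Sgce, a sarcoglycan, was at 2608, 2820, 2232 and 4391 in CON-LFD, 1709, 4246, 3605 and 2815 in DIO-HFD, 2733, 1571, 2471 and 2685 in DIO-LFD, and 1793, 1596, 1657 and 2326 in DIO-VSG. Ndn, a growth suppressor of the Snrpn domain, was at 1210, 1044, 746 and 1800 in CON-LFD, 672, 1320, 1142 and 1361 in DIO-HFD, 759, 814, 1295 and 1504 in DIO-LFD, and 644, 721, 627 and 886 in DIO-VSG. Ppp1r9a, which encodes the actin-binding scaffold neurabin, was at 3241, 3614, 2230 and 3495 in CON-LFD, 1492, 3255, 2538 and 2508 in DIO-HFD, 2577, 2215, 2971 and 2576 in DIO-LFD, and 2166, 1703, 2309 and 2428 in DIO-VSG. For all 3, DIO-VSG overlapped CON-LFD through CON-LFD replicate 3, and the log2 changes against CON-LFD were -0.68 (SE 0.28), -0.68 (SE 0.29) and -0.54 (SE 0.21).

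Cdkn1c and Mkrn3 completed the members called for DIO-VSG against DIO-LFD. Cdkn1c was at 1074, 1094, 694 and 1216 in CON-LFD, 547, 1096, 727 and 998 in DIO-HFD, 1275, 1129, 1118 and 832 in DIO-LFD, and 674, 925, 686 and 695 in DIO-VSG. Mkrn3, a RING finger protein of the Snrpn domain, was at 68.4, 73.1, 51.7 and 71.3 in CON-LFD, 44.4, 88.5, 75.3 and 67.2 in DIO-HFD, 69.9, 64.5, 76.2 and 70.5 in DIO-LFD, and 53.9, 61.2, 51.3 and 36.2 in DIO-VSG. All 4 DIO-VSG libraries of Mkrn3 were below all of DIO-LFD, and for Cdkn1c DIO-VSG replicate 2 lay above DIO-LFD replicate 4. The log2 changes were -0.54 (SE 0.23, adjusted p = 0.509 in limma) and -0.49 (SE 0.23, adjusted p = 0.510).

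**Figure D3:**
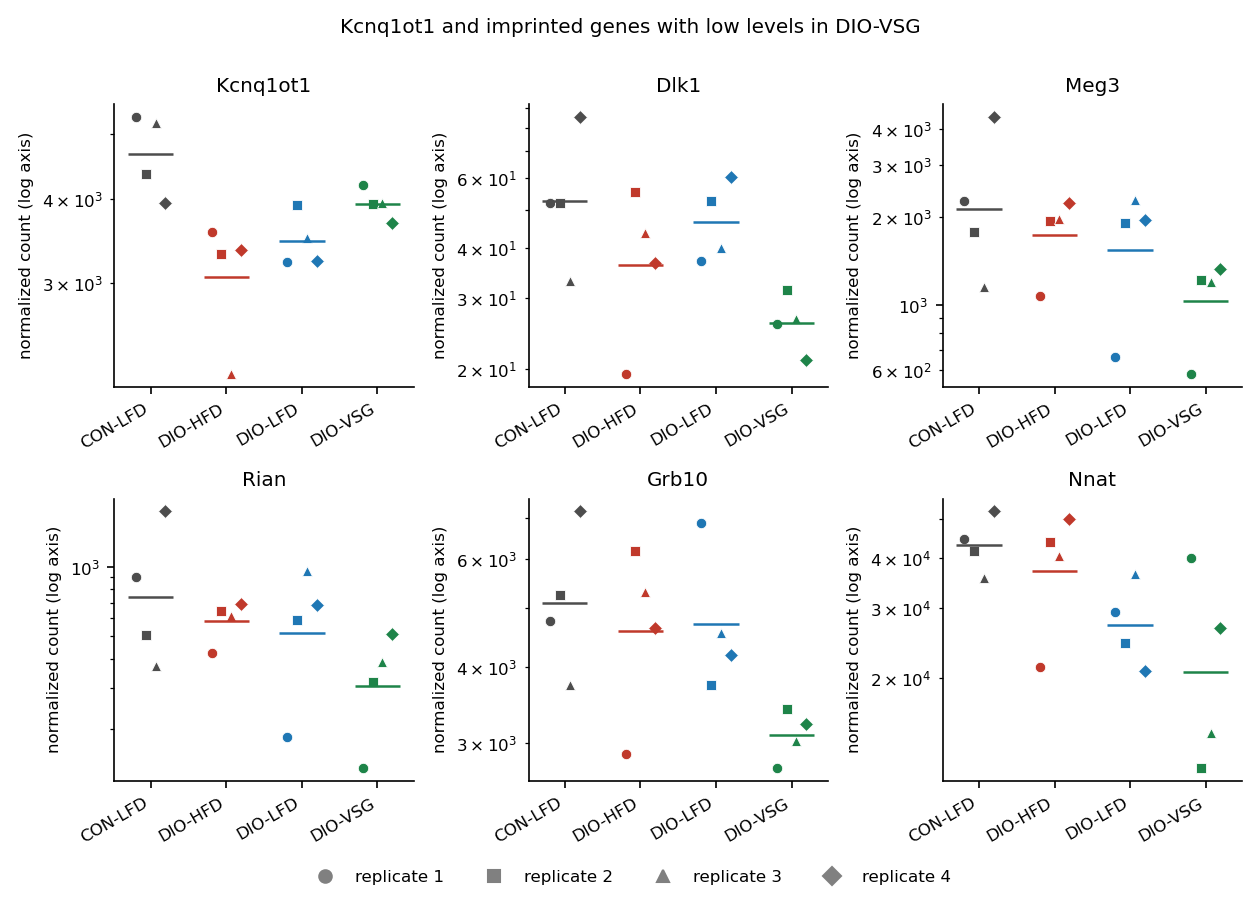
Normalized counts (log axes) of Kcnq1ot1, Dlk1, Meg3, Rian, Grb10 and Nnat in each library by group, with 1 symbol per replicate number and a line at the geometric mean of the group. For Dlk1 (narrowly, at 31.5 against 33.2) and Grb10 the 4 DIO-VSG libraries lie below all CON-LFD and DIO-LFD libraries, and for Kcnq1ot1 the 4 DIO-HFD libraries (2196 to 3565) lie below all CON-LFD libraries.

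All 4 DIO-VSG libraries were rich in lymphoid markers, and their lymphoid sums exceeded those of all DIO-LFD libraries. Their sums of 10 smooth muscle and vessel markers (66941 to 79030) lay below all of DIO-HFD (86409 to 133141) and DIO-LFD (84884 to 100583), and overlapped CON-LFD (77413 to 124493). The median stromal sum was 150070 in DIO-VSG and 258088 to 280151 in the other groups, with overlap. The part of these markers in the member changes was not tested. With the lymphoid score as a covariate, the median member change against CON-LFD was -0.08 and 3 members, not 11, had an unadjusted p under 0.05, while the share of all genes went from 17.8% to 5.05%. Without the 4 lymphoid-poor libraries the median was -0.21 with 1 such member, beside 5.12% of all genes. Against DIO-LFD, which holds none of the lymphoid-poor libraries, the median with the lymphoid covariate was -0.18 and with the adipocyte score it was -0.08. Without DIO-HFD replicates 2 and 3, the median for DIO-VSG against DIO-HFD was -0.05. The lymphoid scores of DIO-VSG lay close together and above all of DIO-LFD, so the fits with this score cannot tell cell makeup and group apart.

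Of the 36 tested members, 15 had no unadjusted p under 0.05 in any of the 7 comparisons. They ranged from the steady H13 (4624 to 6419 normalized counts), Trappc9 (1826 to 3185), Peg13 (3997 to 6359) and Zrsr1 (1164 to 1861) to members with a wider range over the libraries. Impact ran from 2236 to 5357, Blcap from 2885 to 5953, Snrpn from 397 to 1070, Airn from 375 to 764 and Nap1l5 from 256 to 777. Slc38a4, an amino acid transporter, ran from 56.8 to 347, Asb4 from 18.8 to 85.4, and Zdbf2 from 13.1 to 162 with its peak in DIO-LFD replicate 1. Phlda2, a growth-restraining gene of placenta, ran from 2.78 to 106 (3 to 97 reads), both extremes in DIO-HFD. Its changes have little precision (SE 0.92 for DIO-HFD against CON-LFD).

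H19 was the most variable of the abundant noncoding members. It was at 1546, 290, 204 and 942 in CON-LFD, 198, 173, 169 and 304 in DIO-HFD, 60.1, 300, 522 and 1201 in DIO-LFD, and 127, 300, 401 and 371 in DIO-VSG. The DIO-HFD libraries lay close together, while CON-LFD and DIO-LFD each spanned a wide range. The log2 change of H19 in DIO-HFD against CON-LFD was -1.40 (SE 0.80, adjusted p = 0.480 in limma).

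Genes of 1 domain did not always vary together. In all, 10 pairs of neighbours were compared over the 16 libraries, each with Pearson's r on log2 counts, Spearman's rho and 2-sided permutation p-values adjusted over the 10 pairs. Meg3 and Rian had r = 0.98 (permutation p = 1e-05, the smallest these permutations can give, adjusted p = 1e-04; rho 0.96), r = 0.95 without the 2 libraries farthest from the median, and r = 0.97 for deviations from the group means. Rian made up 0.232 to 0.418 counts per count of Meg3 in every library. Rian and Mirg had r = 0.87 (permutation p = 2e-05, adjusted p = 1e-04; rho 0.77, p = 0.00076) and r = 0.67 without 2 libraries. Dlk1, on the opposite parental copy, had r = 0.73 with Meg3 (permutation p = 0.00142, adjusted p = 0.00284; rho 0.67, p = 0.00547) and r = 0.61 without 2 libraries. The 16 libraries share the differences in cell makeup given with the marker sums, whose part in these correlations was not tested.

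H19 and Igf2, which share enhancers on opposite parental copies, had r = 0.18 (permutation p = 0.511, adjusted p = 0.568; rho 0.18, p = 0.496), r = 0.23 without the 2 farthest libraries and r = -0.03 for deviations from the group means. The count of H19 per count of Igf2 ran from 0.062 in DIO-LFD replicate 1 to 1.645 in DIO-LFD replicate 4. Igf2r and its antisense RNA Airn had r = 0.59 (permutation p = 0.0169, adjusted p = 0.0211; rho 0.61, p = 0.0142), and r = 0.48 without 2 libraries, over a narrow range of levels. Ndn with Snrpn (r = 0.68, permutation p = 0.00439, adjusted p = 0.00732; rho 0.69, p = 0.00384; r = 0.58 without 2 libraries) and Nnat with Blcap (r = 0.68, permutation p = 0.00539, adjusted p = 0.0077; rho 0.59, p = 0.0194; r = 0.49 without 2 libraries) were similar.

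Peg3 and Usp29, on opposite strands of the start region printed in part as the Peg3 window, had r = 0.91 (permutation p = 3e-05, adjusted p = 1e-04; rho 0.72, p = 0.00212), and r = 0.78 without DIO-HFD replicates 2 and 3. The ratio of Peg3 to Usp29 counts was 209 to 363 in the 4 DIO-HFD libraries and 491 to 2791 in the other 12. Peg10 and Sgce start 99 bases apart on opposite strands and had r = 0.78 (permutation p = 0.00018, adjusted p = 0.00045; rho 0.86, p = 0.00012), with r = 0.73 without DIO-HFD replicates 2 and 3. Their amplitudes differed: Peg10 had 3.037 and 2.804 counts per count of Sgce in DIO-HFD replicates 2 and 3, 0.597 and 0.375 in replicates 1 and 4, 0.143 to 0.433 in DIO-LFD, 0.173 to 0.324 in CON-LFD and 0.150 to 0.238 in DIO-VSG. These ratios were looked at after the values were seen and are given with no test.

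**Figure D4:**
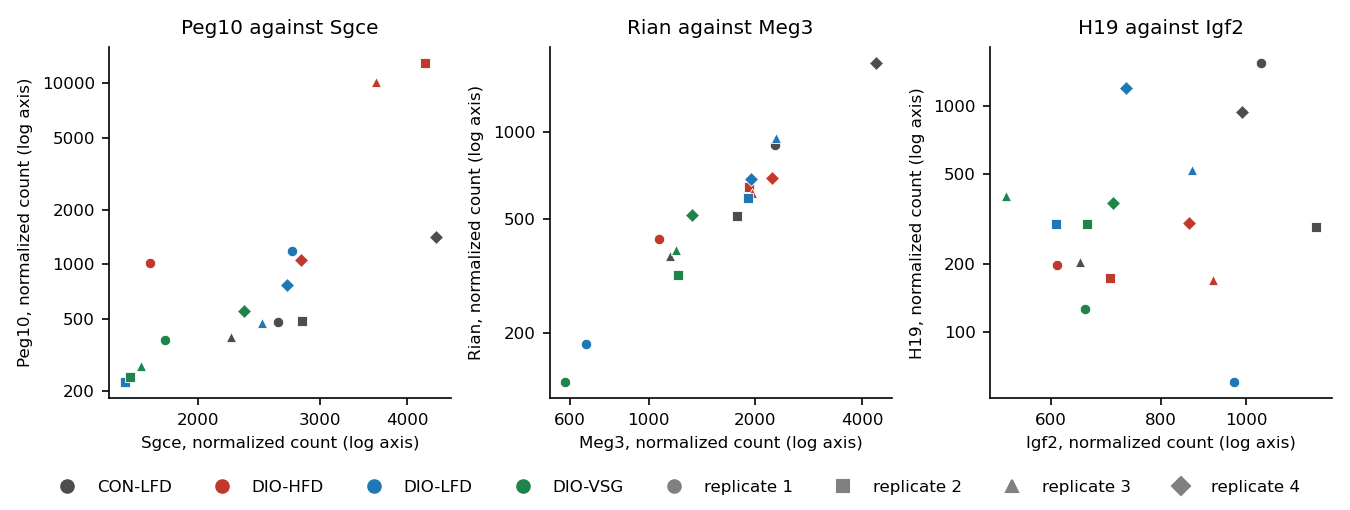
Normalized counts of Peg10 against Sgce, Rian against Meg3 and H19 against Igf2 in the 16 libraries (log axes), with color for the group and symbol for the replicate number. Rian follows Meg3 closely (r = 0.98), H19 and Igf2 are scattered (r = 0.18), and DIO-HFD replicates 2 and 3 carry Peg10 away from Sgce.

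Genes around the imprinted members were counted from lists drawn up for the same purpose. Of 36 other imprinted genes tested, 0 passed the adjusted threshold in any comparison in limma. At the unadjusted threshold, 6 of 36 (16.7%, beside 13.2% of all genes) were called for DIO-VSG against DIO-HFD, all lower, and 2 (5.56%, beside 12.9%) for DIO-HFD against CON-LFD. For DIO-VSG, 4 were higher and 5 lower against CON-LFD (25%, beside 17.8%), and 2 higher and 3 lower against DIO-LFD (13.9%, beside 9.71%). The smallest p-values over the comparisons with DIO-HFD belonged to Kcnq1, given above, and Htr2a, a serotonin receptor, at -0.82 (SE 0.24, adjusted p = 0.259) for DIO-VSG against DIO-HFD. Of 17 genes that set or keep imprints, 0 passed the adjusted threshold in any comparison. At the unadjusted threshold 0 were called for DIO-HFD against CON-LFD, 5 for DIO-VSG against CON-LFD (29.4%, beside 17.8% of all genes) and 3 for DIO-VSG against DIO-LFD (17.6%, beside 9.71%), all 8 calls higher in DIO-VSG. The summed normalized count of the list was 53528 to 60653 in DIO-VSG and 46860 to 50576 in DIO-LFD. It was lowest in the lymphoid-poor CON-LFD replicate 2 (44028), and highest in DIO-HFD replicate 1 (67088), which had the highest lymphoid sum. The 2 sums did not share 1 order throughout. CON-LFD replicate 1, with a lymphoid sum of 24708, was at 54096, above DIO-VSG replicate 4 (53528), with a lymphoid sum of 79884. The part of cell makeup in these calls was not tested. For DIO-VSG against DIO-HFD 1 was called, also higher (5.88%, beside 13.2%), and for DIO-LFD against DIO-HFD 2, both lower (11.8%, beside 8.53%). Over the comparisons with DIO-HFD, the smallest p-values were those of Hells (-0.94, SE 0.37, adjusted p = 0.511), a chromatin remodeller, and Uhrf1 (-1.15, SE 0.47, adjusted p = 0.528), a partner of maintenance methylation, both for DIO-LFD against DIO-HFD.

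Of 13 partners of insulin-like growth factors tested, 12 were lower in DIO-VSG than in DIO-HFD (median -0.40), beside 10085 of 21218 genes tested (median 0.02). At the unadjusted threshold 2 of the 13 were called, both lower (15.4%, beside 13.2% of all genes). Those were Igfbp4, a binding protein (-0.71, SE 0.22, adjusted p = 0.274 in limma), and Igf1r, the signalling receptor for Igf1 and Igf2 (-0.40, SE 0.14, adjusted p = 0.302). In DIO-HFD against CON-LFD, 7 of the 13 were higher and 6 lower, with 0 at the unadjusted threshold beside 12.9% of all genes. Against the mean of the 3 low-fat diet groups, 3 of 13 were called, all higher in DIO-HFD (23.1%, beside 11.6% of all genes). The summed count of the list was 86905 to 95428 in DIO-VSG. In DIO-HFD it was 91353 in the lymphoid-rich replicate 1 and 146111 to 169318 in replicates 2 to 4. The part of cell makeup in the changes of this list was not tested.

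**Figure D5:**
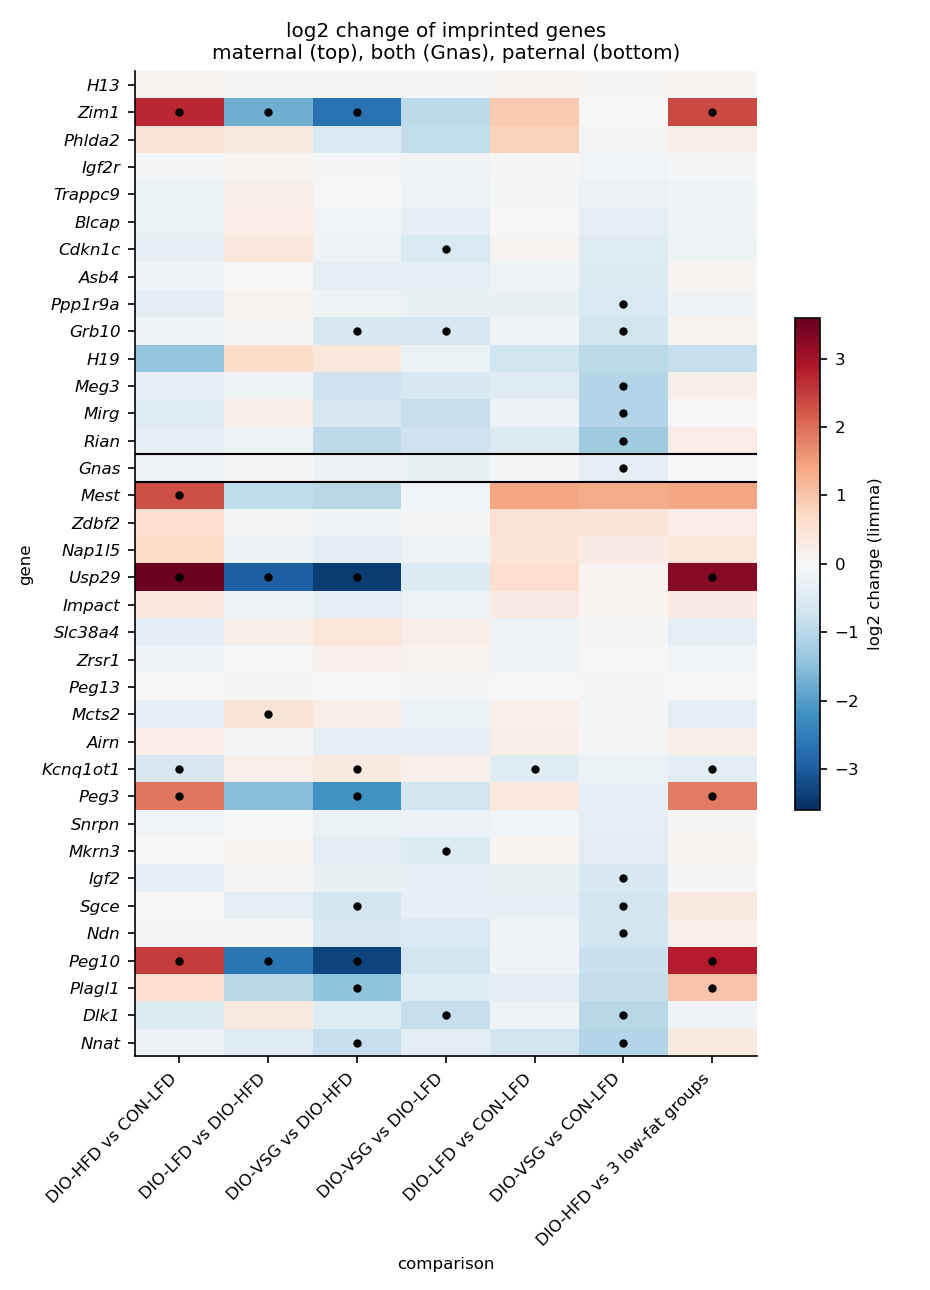
Color map of the log2 change of the 36 tested members (rows, maternal above, Gnas between the lines, paternal below) in the 7 comparisons (columns), with a dot where the unadjusted limma p was under 0.05; no member passed the adjusted threshold. Usp29, Zim1 and Peg10 have the largest changes in the DIO-HFD against CON-LFD column, and the DIO-VSG against DIO-LFD column is blue for all 14 maternal and 18 of 21 paternal members.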

How the data were processed

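The 16 libraries (4 per group, grouped by the submitters' titles) were stranded total RNA libraries. The methods name STAR, salmon and a Gencode annotation on GRCm38, while the submitters' processing notes name TopHat2 2.0.7, HTSeq 0.5.3p9 and DESeq2, and this difference could not be settled. The authors deposited log2 values from a variance-stabilizing transformation, from 5.36 to 21.85, although the design assumed normalized counts. The transformation was inverted to normalized counts, and division by each library's step gave whole reads for 100.0% of values (within 0.05 read). Totals were 46907377 to 57610899 reads, so counting error is small except for members with few reads, such as Dlk1 (21 to 85 reads). No library was present under 2 names (chi-square per gene at least 67.9). No column of values was left without a sample.

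After leaving out genes that reached 10 normalized counts in fewer than 4 libraries, 21218 remained. These entered limma-trend on the scale log2(normalized count + 1), with all 16 libraries and group as the only term (R 4.3.3 and limma version 3.58.1), 2-sided, with Benjamini-Hochberg adjustment over all genes. A fold change on this scale understates that of low genes. Alternatives were other scales and scalings, no filter, limma-voom on the recovered reads, library weights, the replicate block, marker scores as covariates and libraries left out. Positions and lengths came from GENCODE M21 (GRCm38), and overlapping genes and retrogenes (Mcts2, Zrsr1, Nap1l5) may share reads. Members and lists were chosen with earlier results of these data known. Every member with an unadjusted p under 0.05 in any of 7 comparisons is given in every library, the others by range, and from each further list the 2 genes with the smallest p over the comparisons with DIO-HFD. The authors' own lists and values were not used. Each library is 1 mouse by its animal number, and p-values measure the spread between mice.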

Additional observations from a re-analysis of the deposited data

Results flagged for a closer look

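Among the 144 groups of 4 libraries (36 members in 4 groups), 8 held a library whose gap to the nearest of the other 3, as a share of the whole range on the log2 scale, was above Dixon's 95% critical value. Chance gives such a gap in about 1 of 20 groups, so about as many are expected by chance. DIO-VSG replicate 2 was the lowest for Peg3 (4786.8 normalized counts, the next 9923.5) and the highest for Cdkn1c (924.6, the next 694.7). DIO-LFD replicate 1 was the lowest for Meg3 (664.9, the next 1906.4) and the highest for Peg13 (6358.8, the next 4463.6). DIO-VSG replicate 1 was the lowest for Meg3 (580.9, the next 1191.6). DIO-VSG replicate 3 was the highest for Igf2r (8123.6, the next 7276.1). CON-LFD replicate 4 was the highest for Peg10 (1423.9, the next 487.7). DIO-HFD replicate 3 was the lowest for Kcnq1ot1 (2195.9, the next 3310.0). DIO-HFD replicates 2 and 3, which stand together above replicates 1 and 4 for Peg3, Usp29, Zim1, Peg10, Mest, Plagl1 and other members, cannot be found by this rule, since each has the other as its near neighbour.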

How the results depend on the processing

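Over 29 other settings, the 41 member changes with an unadjusted p under 0.05 gave 1183 values. Of these, 0 changed direction, 977 had an unadjusted p under 0.05 and 206 did not, and 41 passed the adjusted threshold, which none passed in the fit reported. Of the settings, 3 were chosen after seeing the data: the adipocyte score as a covariate, DIO-HFD replicates 2 and 3 left out, and the 4 lymphoid-poor libraries left out.

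Counts are of members past the adjusted threshold, then past the unadjusted one, and medians are log2 changes. Percentages in parentheses are the shares of all genes past the same threshold in the same fit. With library weights, which weigh noisy libraries down, DIO-HFD against CON-LFD gave 5 (19.8%) and 13 members (37.5%), and DIO-LFD against DIO-HFD 2 (8.54%) and 7 (26.4%). DIO-VSG gave 14 (17.6%) and 17 (33.9%) against DIO-HFD, and 10 (19.9%) and 17 (37.4%) against CON-LFD. DIO-HFD against the 3 low-fat diet groups gave 10 (20.5%) and 13 (35.6%). At the unadjusted threshold the weights gave 12 (25.9%) for DIO-VSG against DIO-LFD and 2 (17%) for DIO-LFD against CON-LFD. The weights made the largest log2 changes smaller: against CON-LFD, DIO-HFD gave 2.19 for Usp29, 1.56 for Zim1 and 1.12 for Peg10, Peg10 was at -1.76 for DIO-VSG against DIO-HFD, and against the 3 low-fat diet groups Peg10 was at 1.37 and Usp29 at 2.16. With the lymphoid score, DIO-HFD gave 1 member past the adjusted threshold against CON-LFD (0.0848%) and 2 against the 3 low-fat diet groups (0.749%). At the unadjusted threshold it gave 4 (10.2%) for DIO-VSG against DIO-HFD, 2 (8.73%) against DIO-LFD and 3 (5.05%) against CON-LFD, with a median of -0.0816, and 6 (13%) for DIO-LFD against CON-LFD. With the stromal score, DIO-VSG against CON-LFD gave 6 (12.9%) at the unadjusted threshold.

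With the adipocyte score, DIO-HFD against CON-LFD gave 3 (0.0754%) and 11 (17%), DIO-LFD against DIO-HFD 1 (0.108%) and 10 (16%), and DIO-HFD against the 3 low-fat diet groups 7 (2.12%) and 12 (22.8%). DIO-VSG against DIO-HFD gave 1 (0.575%) past the adjusted threshold. At the unadjusted threshold the score gave 0 (5.09%) for DIO-VSG against DIO-LFD, with a median of -0.0846, and 6 (6.23%) against CON-LFD, with a median of -0.082. The median for DIO-HFD turned to 0.06 against CON-LFD with this score, and to -0.01 against the 3 low-fat diet groups with the stromal score. Without DIO-HFD replicates 2 and 3, the median was -0.3687 for DIO-HFD against CON-LFD and -0.0532 for DIO-VSG against DIO-HFD, with 2 members (5.89%) at the unadjusted threshold in the latter. Without the 4 lymphoid-poor libraries, that threshold gave 2 members (7.54%) for DIO-HFD against CON-LFD, 2 (6.95%) for DIO-VSG against DIO-HFD, with a median of -0.0532, and 1 (5.12%) for DIO-VSG against CON-LFD. limma-voom, in which the median of all genes was 0.17 for DIO-HFD against CON-LFD, gave 10 there (16.4%), with a member median of 0.04, and 0 (6.05%) for DIO-LFD against CON-LFD, and a fit of the 2 groups alone gave 2 (4.9%) for the latter. In deviations from the group means, r turned to -0.0272 for H19 with Igf2 and to -0.1003 for Cdkn1c with Kcnq1ot1. The cause of these shifts was not tested.

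Leaving out 1 library at a time gave, at the unadjusted threshold, 4 to 11 members (8.53% to 19.7%) for DIO-HFD against CON-LFD and 5 to 10 (9.35% to 15.0%) against the 3 low-fat diet groups. It gave 2 to 8 (5.95% to 9.21%) for DIO-LFD against DIO-HFD and 1 to 3 (3.96% to 12.5%) against CON-LFD. DIO-VSG gave 5 to 14 (7.47% to 27.5%) against DIO-HFD, 1 to 6 (5.11% to 13.3%) against DIO-LFD and 5 to 13 (8.95% to 30.5%) against CON-LFD. At the adjusted threshold it gave 0 to 1 for DIO-VSG against CON-LFD and 0 in the other comparisons. The replicate number does not mark shared animals, and same-numbered libraries did not deviate together (median r 0.02, from -0.61 to 0.53, with 4 of 16 libraries closest to their own number). With the replicate block, 2 members (7.85%) in place of 4 (8.53%) had an unadjusted p under 0.05 for DIO-LFD against DIO-HFD, and no member passed the adjusted threshold.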
